A study of Mus musculus with 4 samples.

Results

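Intraepithelial lymphocytes are T cells that live among the epithelial cells lining the gut, and a sort for them can carry some of those neighbours along. Here the epithelial cells that came through such sorts of mouse colon are described, cell by cell. The cells were chosen by their UMIs (unique molecular identifiers, each standing for 1 captured transcript) of Krt8, Krt19, Pigr and Epcam, which had to add up to 10 or more. That rule found 52 of 16787 cells over the 4 deposited libraries. Since measured counts of those 4 genes chose the cells, the levels of those genes in them are a description and not a finding.

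Each library is a droplet-based 3′ single-cell library of live CD3+ CD8α+ cells. The sorts were TCRβ+ Tcf7KO, TCRβ+ Tcf7WT, TCRγ+ Tcf7KO and TCRγ+ Tcf7WT, and the TCRγ+ sorts are called TCRγδ in the sample titles and here. The strain label is E8IcreTcf7fl/fl for every library, so Tcf7KO and Tcf7WT are told apart by the genotype label alone, and whether the Tcf7WT mice carried the Cre or the floxed allele is not given in the sources used here. E8I is an enhancer of the CD8α gene that drives Cre in mature CD8 T cells, and Tcf7 is the gene of TCF-1, a DNA-binding effector of Wnt signals that T cells use. The deletion is thus aimed at the sorted T cells and not at epithelium. The age and number of animals per library are not given in the sources used here. No barcode of an epithelial cell was found in another library, while 26 barcodes of other cells were found in more than 1. Each group was 1 library, of 6195292 to 20289960 UMIs, so no difference between groups was tested, and every interval below is a 95% interval that covers counting error only.

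The colon epithelium renews itself from crypts whose base holds dividing stem and progenitor cells. Daughters move up the crypt and take either an absorptive or a secretory fate. Absorptive colonocytes take up salt, water and short-chain fatty acids, and goblet cells make the mucus gel that keeps bacteria away from the surface. Rarer secretory cells release hormones or sense luminal contents.

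The TCRβ Tcf7KO library held 3 epithelial cells of 5785 (0.0519%, exact binomial interval 0.0107 to 0.151), and the TCRβ Tcf7WT library held 11 of 7603 (0.145%, 0.0722 to 0.259). The TCRγδ Tcf7KO library held 20 of 1511 (1.32%, 0.810 to 2.04), and the TCRγδ Tcf7WT library held 18 of 1888 (0.953%, 0.566 to 1.5). The cells were therefore a larger share of both TCRγδ libraries than of either TCRβ library, and within each sort the intervals of Tcf7KO and Tcf7WT overlapped. The 52 cells held 786144 UMIs, from 878 to 50105 a cell. Their median depth was 38231 UMIs in TCRβ Tcf7KO, 11086 in TCRβ Tcf7WT, 22219 in TCRγδ Tcf7KO and 2558.5 in TCRγδ Tcf7WT, against 2860, 2430, 4352 and 3190 in the other cells of those libraries. The epithelial cells of TCRγδ Tcf7WT were thus the shallowest, and 8 of the 10 epithelial cells under 2000 UMIs were among them.

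The label was checked against transcripts. The counts of the 4 selection genes follow largely from the rule and support nothing: Krt8, a keratin of simple epithelia, was found in all 52 cells, Krt19, another such keratin, in 49, Pigr, the receptor that carries IgA to the lumen, in 48, and the adhesion protein gene Epcam in 49. Muc2, the gel-forming mucin of goblet cells, was found in 23. Lgals4, a galectin of intestinal epithelium that the rule did not use, is independent of it and had UMIs in all 52 cells, with a median of 51.6 per 10000 UMIs of a cell. T cell transcripts were near absent. A list of 19 T cell genes gave 0 to 8 UMIs a cell, with medians of 5, 1, 3 and 1 UMIs in TCRβ Tcf7KO, TCRβ Tcf7WT, TCRγδ Tcf7KO and TCRγδ Tcf7WT, against 89, 60, 337 and 160 in the other cells of those libraries. The most frequent of them were the chemokine gene Ccl5, with 31 UMIs in 20 cells, and the granzyme gene Gzma, with 21 UMIs in 16 cells. Cd2, Cd247, Cd8b1 and Trbc2 had no UMI in any epithelial cell. Lists of B cell and plasma cell genes and of stromal and endothelial genes had no UMI in them, and a myeloid list had 3, though 3 to 5 of 6, 1 to 2 of 6 and 1 of 6 genes of those lists were listed in a library.

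Cells just inside and just outside the threshold were of different kinds. The 3 epithelial cells nearest to it had 20, 14 and 12 UMIs of the 4 genes, of which 11, 9 and 6 were Krt8, and 0, 0 and 1 T cell UMIs. The 3 cells nearest below it had 9, 8 and 8, of which 6, 8 and 8 were Epcam, and 1026, 516 and 391 T cell UMIs. All 16 cells with 6 to 9 UMIs of the 4 genes had most of them from Epcam. Their T cell UMIs lay between 78 and 1026.

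Epcam is also what stood out beyond the epithelial cells. In TCRβ Tcf7KO it stood at 2687 CPM (UMIs per 1000000 UMIs) in epithelial cells and at 171 CPM in all other cells, in TCRβ Tcf7WT at 3001 and 161 CPM, in TCRγδ Tcf7KO at 2641 and 207 CPM, and in TCRγδ Tcf7WT at 2325 and 158 CPM. Krt8 stood at 2998 and 3.12 CPM, 7484 and 2.58 CPM, 6020 and 9.5 CPM, and 6818 and 19.2 CPM in the same 4 libraries. There were 0.896, 0.401, 0.439 and 0.341 Epcam UMIs for each Krt8 UMI in the epithelial cells of TCRβ Tcf7KO, TCRβ Tcf7WT, TCRγδ Tcf7KO and TCRγδ Tcf7WT, against 54.6, 62.6, 21.8 and 8.23 in the other cells. Krt19 kept a like ratio to Krt8 inside and outside, with 0.616, 0.690, 0.599 and 0.639 UMIs for each Krt8 UMI in epithelial cells and 0.614, 0.692, 0.547 and 0.632 in other cells. Pigr kept its ratio to Krt8 less closely. In epithelial cells it had 561, 700, 1923 and 554 UMIs beside 328, 975, 2676 and 695 of Krt8. In other cells it had 55, 42, 20 and 51 beside 57, 52, 64 and 117. A UMI of Krt8, Krt19 or Pigr was found in 2.28%, 1.61%, 7.31% and 11.7% of the other cells of those libraries, mostly as 1 UMI, while an Epcam UMI was found in 38.3%, 31.5%, 56.4% and 33.7%. The shares of Krt8, Krt19 or Pigr were larger in the TCRγδ libraries, where the epithelial cells were also a larger share. Epcam did not follow that order, with TCRγδ Tcf7WT between both TCRβ libraries.

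**Figure D1:**
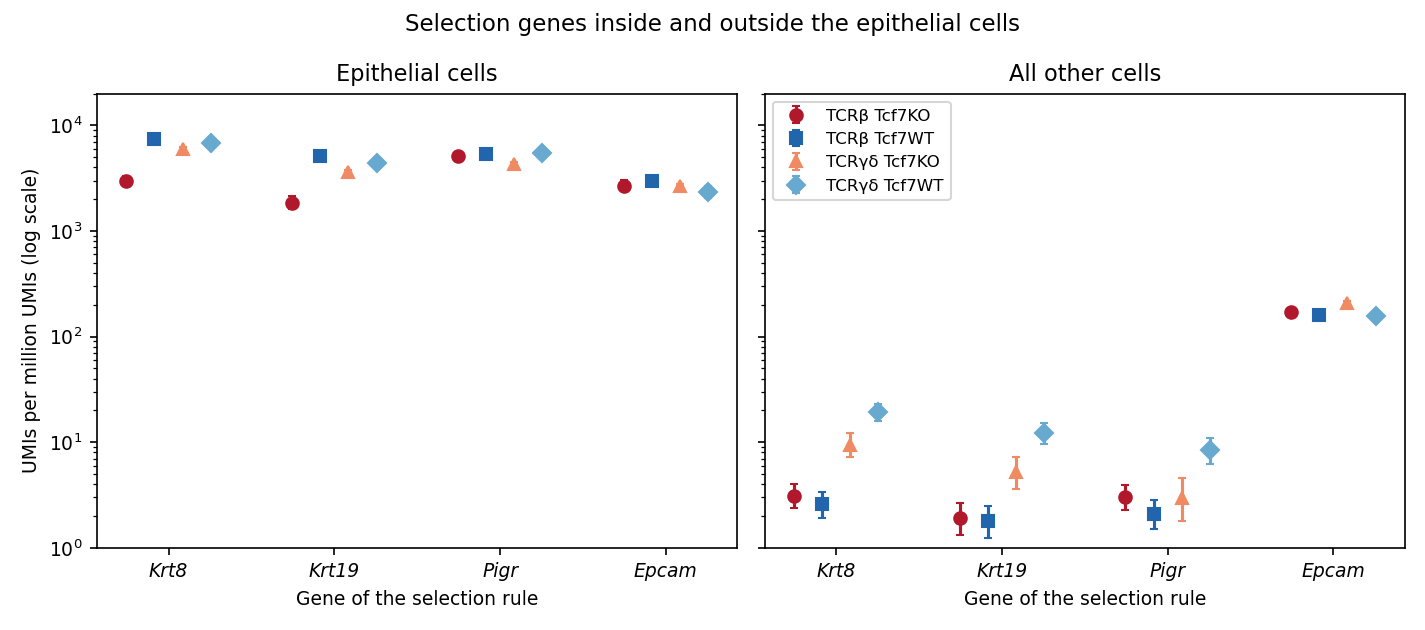
UMIs per 1000000 UMIs (log scale) of the 4 genes of the selection rule in the epithelial cells (left) and in all other cells (right), 1 point for each library, with exact Poisson 95% intervals that cover counting error only. Outside the epithelial cells Krt8 lies between 2.58 and 19.2, while Epcam lies between 158 and 207.

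The 2 programmes were followed over the cells, each as the sum of 3 genes. The goblet programme was Muc2, Retnlb, which encodes a bactericidal resistin-like protein of goblet cells, and Reg4, a lectin gene of secretory cells of the colon. The absorptive programme was Car1, a carbonic anhydrase of colonocytes, Cyp2c55, a cytochrome P450 of the colon, and Fabp2, the intestinal fatty-acid-binding protein. In GRCm38 coordinates of GENCODE M21, Muc2 spans chr7:141690340-141754693, Retnlb chr16:48816856-48818892, Reg4 chr3:98222156-98236748, Car1 chr3:14766216-14808368, Cyp2c55 chr19:39007019-39042693 and Fabp2 chr3:122895072-122899506. Car1 lies on the minus strand and the other 5 on the plus strand.

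The 250 bases before the start of 4 of these genes are shown because the cells separate by their transcripts and because the sequences let the start regions of the programmes be set side by side. They were read from RefSeq (GRCm38.p6, plus strand), and Retnlb and Car1 are named only. Capitals mark matches, on either strand, to the TATA box TATAAA, the HNF4-type motif CAAAGTNCA, the CDX2-type motif TTTATNG and the GATA-type motif TGATAA.
Muc2 (chr7:141690090-141690339): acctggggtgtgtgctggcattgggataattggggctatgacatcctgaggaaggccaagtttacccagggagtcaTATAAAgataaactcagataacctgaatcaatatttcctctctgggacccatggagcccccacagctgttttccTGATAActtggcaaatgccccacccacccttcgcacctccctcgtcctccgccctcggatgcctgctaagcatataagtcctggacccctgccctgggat
Reg4 (chr3:98221906-98222155): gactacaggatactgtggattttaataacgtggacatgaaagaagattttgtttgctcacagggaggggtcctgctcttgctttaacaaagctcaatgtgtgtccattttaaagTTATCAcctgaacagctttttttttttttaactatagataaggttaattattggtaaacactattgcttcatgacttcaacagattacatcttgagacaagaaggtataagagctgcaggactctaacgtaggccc
Cyp2c55 (chr19:39006769-39007018): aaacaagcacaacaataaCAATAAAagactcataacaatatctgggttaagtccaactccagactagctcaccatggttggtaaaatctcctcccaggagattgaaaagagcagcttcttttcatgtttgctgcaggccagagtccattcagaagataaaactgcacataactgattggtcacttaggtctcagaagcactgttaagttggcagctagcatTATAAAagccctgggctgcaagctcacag
Fabp2 (chr3:122894822-122895071): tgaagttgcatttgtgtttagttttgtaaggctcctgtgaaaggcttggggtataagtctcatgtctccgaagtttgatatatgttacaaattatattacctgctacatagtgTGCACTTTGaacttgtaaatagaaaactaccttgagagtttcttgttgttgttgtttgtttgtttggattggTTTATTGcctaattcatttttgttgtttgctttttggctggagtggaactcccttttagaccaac

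Over 32851 promoter windows of that length, TATAAA was found in 12.4%, CAAAGTNCA in 1.19%, TTTATNG in 9.81% and TGATAA in 7.94%. Muc2 held a TATAAA that began 174 bases before its start and a TGATAA that began 100 bases before it, and Reg4 held a TGATAA on the opposite strand, 136 bases before its start. Cyp2c55 held a TATAAA 29 bases before its start and a TTTATNG on the opposite strand 232 bases before it. Fabp2 held a TTTATNG 65 bases before its start and a CAAAGTNCA on the opposite strand 137 bases before it, the least frequent of the 4 motifs. The matches overlapped nowhere in these windows. A match to these letters is a description and not a shown binding site.

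Muc2 had 1703 UMIs in the epithelial cells of TCRβ Tcf7KO, all in 1 of 3 cells, and 253 in 4 of 11 cells of TCRβ Tcf7WT. It had 2180 UMIs in 14 of 20 cells of TCRγδ Tcf7KO and 320 in 4 of 18 cells of TCRγδ Tcf7WT. Retnlb followed it, with 638, 137, 1239 and 132 UMIs in 1, 2, 7 and 2 cells of those libraries. Reg4 had 87, 440 and 31 UMIs in 2, 6 and 1 cells of TCRβ Tcf7WT, TCRγδ Tcf7KO and TCRγδ Tcf7WT, and it is not listed for TCRβ Tcf7KO, where it gets no value. Retnlb and Reg4 were thus carried by fewer cells than Muc2 in TCRγδ Tcf7KO, where Muc2 was found in most cells.

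Car1 had no UMI in the 3 epithelial cells of TCRβ Tcf7KO, 247 UMIs in 4 cells of TCRβ Tcf7WT, 1587 in 9 cells of TCRγδ Tcf7KO and 103 in 6 cells of TCRγδ Tcf7WT. Cyp2c55 had 1, 68, 567 and 50 UMIs in 1, 4, 10 and 9 cells of those libraries. Fabp2 was spread more evenly, with 23, 86, 204 and 59 UMIs in 3, 7, 11 and 7 cells. Single cells held much of each programme. The cell with the most goblet UMIs held 100%, 70.02%, 36.3% and 98.1% of them in TCRβ Tcf7KO, TCRβ Tcf7WT, TCRγδ Tcf7KO and TCRγδ Tcf7WT, and the cell with the most absorptive UMIs held 54.2%, 70.3%, 73.3% and 65.1% of those.

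Cells rich in one programme held little of the other. Of the 52 cells, 19 had a UMI of both, 6 of the goblet programme only, 19 of the absorptive programme only, and 8 of neither. At least 100 goblet UMIs were found in 7 cells and at least 100 absorptive UMIs in 5 others, and 1 cell had at least 20 of each. A cell with 10 or more programme UMIs was called goblet-leading when at least 80% of them were goblet, absorptive-leading when at most 20% were, and mixed in between. That gave 10 goblet-leading, 13 absorptive-leading and 3 mixed cells, and left 26 unscored, of which 18 had 1 to 9 programme UMIs. Of the 26 scored cells, 8 had a goblet share of 99% or more and 9 a share of 1% or less, and 1 lay within 10 percentage points of a bound.

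**Figure D2:**
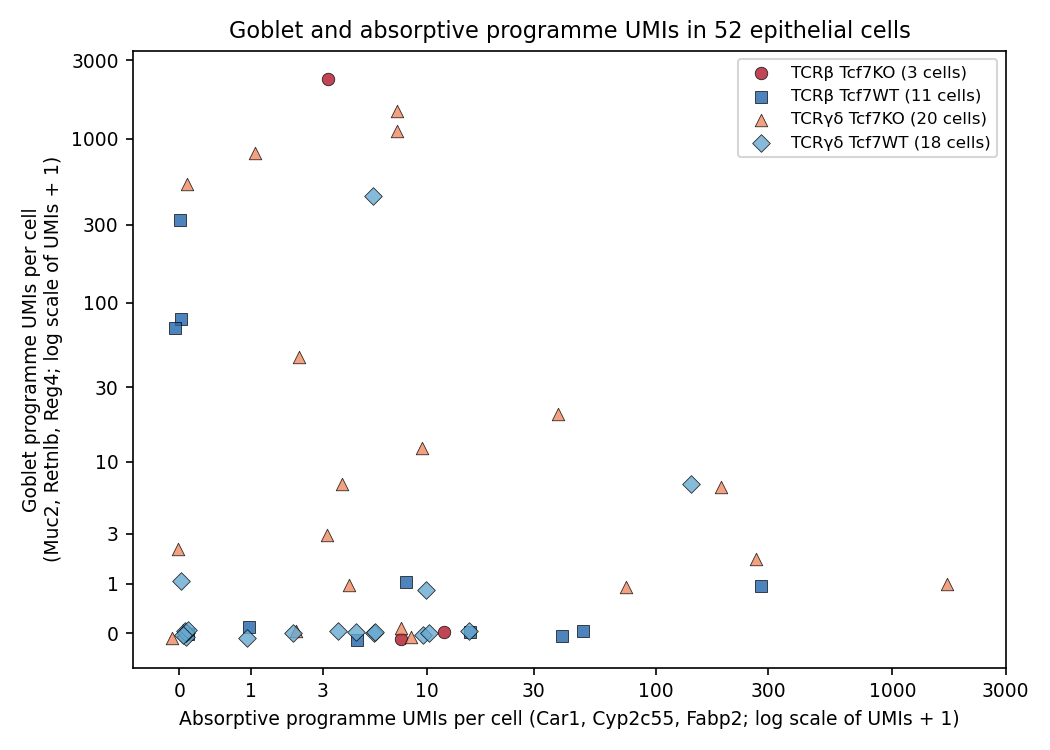
Goblet programme UMIs (vertical) against absorptive programme UMIs (horizontal) in each of the 52 epithelial cells, both axes on a log scale of UMIs + 1, with marker and colour for the library and a small random offset that separates cells with the same counts. The cells with 100 or more UMIs of one programme lie near an axis, and 1 cell has 20 or more of each.

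The goblet-leading cells were 1, 3, 5 and 1 in TCRβ Tcf7KO, TCRβ Tcf7WT, TCRγδ Tcf7KO and TCRγδ Tcf7WT, and the absorptive-leading cells were 1, 4, 4 and 4. The mixed cells were all in TCRγδ Tcf7KO. The TCRβ Tcf7KO goblet-leading cell had 2341 goblet and 3 absorptive UMIs in 21067. Those of TCRβ Tcf7WT had 334, 74 and 67 goblet UMIs and no absorptive one. Those of TCRγδ Tcf7KO had 1399, 1047, 808, 499 and 49 goblet UMIs against 7, 8, 1, 0 and 2 absorptive ones, and the one of TCRγδ Tcf7WT had 474 against 5. The balance of these cells is set by the bounds of the class, while their amounts lay wide apart.

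Among absorptive-leading cells the amount differed more. The richest, in TCRγδ Tcf7KO, had 1729 absorptive UMIs and 1 goblet UMI, and 1311 of them were Car1. The next were 288 and 282 absorptive UMIs in a TCRγδ Tcf7KO and a TCRβ Tcf7WT cell, and the lowest was 9 in TCRγδ Tcf7WT beside 1 goblet UMI. The single absorptive-leading cell of TCRβ Tcf7KO rested on 13 Fabp2 UMIs in 50105, with no Car1 or Cyp2c55 UMI. The mixed cells had 20 goblet and 36 absorptive, 13 and 10, and 7 and 4 UMIs. In the first of these all goblet UMIs were Muc2, and 25 of the absorptive ones were Car1. Asking in addition for 10 programme UMIs per 10000 UMIs, a choice made after seeing the data, left the goblet-leading share at 19.2% of the 52 cells and gave 23.1% against 25% for absorptive-leading cells.

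Genes outside the programmes were then read in the same classes. For each gene the summed CPM of the 10 goblet-leading cells was divided by that of the 13 absorptive-leading cells, over 1787 genes with at least 50 UMIs. The log2 ratio had a median of -0.13 over all of them. Of a list of 18 other goblet genes 11 were measured, and 10 of these were at least 4-fold higher in goblet-leading cells, against 2.52% of all genes tested. The list's median log2 ratio was 5.29. Of the 11, 8 had under 50 UMIs in absorptive-leading cells and so passed the minimum through goblet-leading cells, which means that the count and the median support nothing by themselves. The classes were cut from 6 genes of the same cells, so this is a description of those cells with no test.

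Spink4, a goblet cell peptide, stood at 13533 CPM in goblet-leading cells and 11.3 CPM in absorptive-leading cells (log2 ratio 10.22, 8.67 to 12.50). Fcgbp, a mucus protein, had a log2 ratio of 7.12 (5.56 to 9.40) over the 3 libraries that list it, Ramp1, a receptor co-factor for calcitonin gene-related peptide, 7.54 (5.04 to 12.86), and Clca1, a protease that processes mucus, 5.41 (4.15 to 7.05). Zg16, a lectin that binds bacteria in mucus, had 5.29 (4.70 to 5.94), the trefoil peptide Tff3 4.30 (3.75 to 4.91), and Agr2, the disulfide isomerase needed to fold mucins, 3.96 (3.70 to 4.24). Ern2, an endoplasmic reticulum stress sensor of mucus cells, had 3.50 (2.55 to 4.62), and Klk1, a secreted protease, 2.68. Creb3l1, a transcription factor of secretory cells, was the only measured gene of the list under 4-fold, at 1.70 (1.28 to 2.13). Single libraries moved some of these values: without TCRγδ Tcf7KO Tff3 stood at 8.21, Zg16 at 7.54 and Ramp1 at 5.24, and without TCRβ Tcf7WT Tff3 stood at 3.11, Zg16 at 3.53 and Clca1 at 3.97. Clca1 stood at 7.38 without TCRγδ Tcf7WT. Each stayed past 4-fold.

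Of genes on no list, Mptx1, a mucosal pentraxin, had the highest ratio among the 15 named, at 28097 CPM in goblet-leading cells and 18.9 CPM in absorptive-leading cells (log2 ratio 10.54, 9.32 to 12.16). It was found in 10 of 10 goblet-leading and 2 of 13 absorptive-leading cells. Sval1 had a log2 ratio of 8.43 (6.88 to 10.71), and the chemokine gene Ccl6, with 436 UMIs against 0, a ratio of at least 7.72 with the absent side set at 3 UMIs. Hgfac, a serine protease that activates hepatocyte growth factor, stood at 3.71 and the surface protein gene Ly6e at 3.36. Among the programme genes themselves, Muc2 had 4400 UMIs against 15 and Retnlb 2137 against 5, and Reg4, over the 3 libraries that list it, 555 against 0.

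The goblet-leading cells were not uniform. Mptx1 ranged from 3.54 to 1246 per 10000 UMIs of a cell, Spink4 from 0 to 269 and Retnlb from 0 to 307. Zg16 was found in 5 of the 10 cells, Clca1 in 6 and Tff3 in 6. The extreme was a TCRβ Tcf7WT cell of 1542 UMIs, which had 649 Zg16, 402 Clca1 and 402 Tff3 UMIs per 10000 and no Spink4 or Retnlb UMI. That cell had 435 Muc2 per 10000, so the mucin itself was high with and without Retnlb and Spink4. This contrast was noticed after the values were seen.

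**Figure D3:**
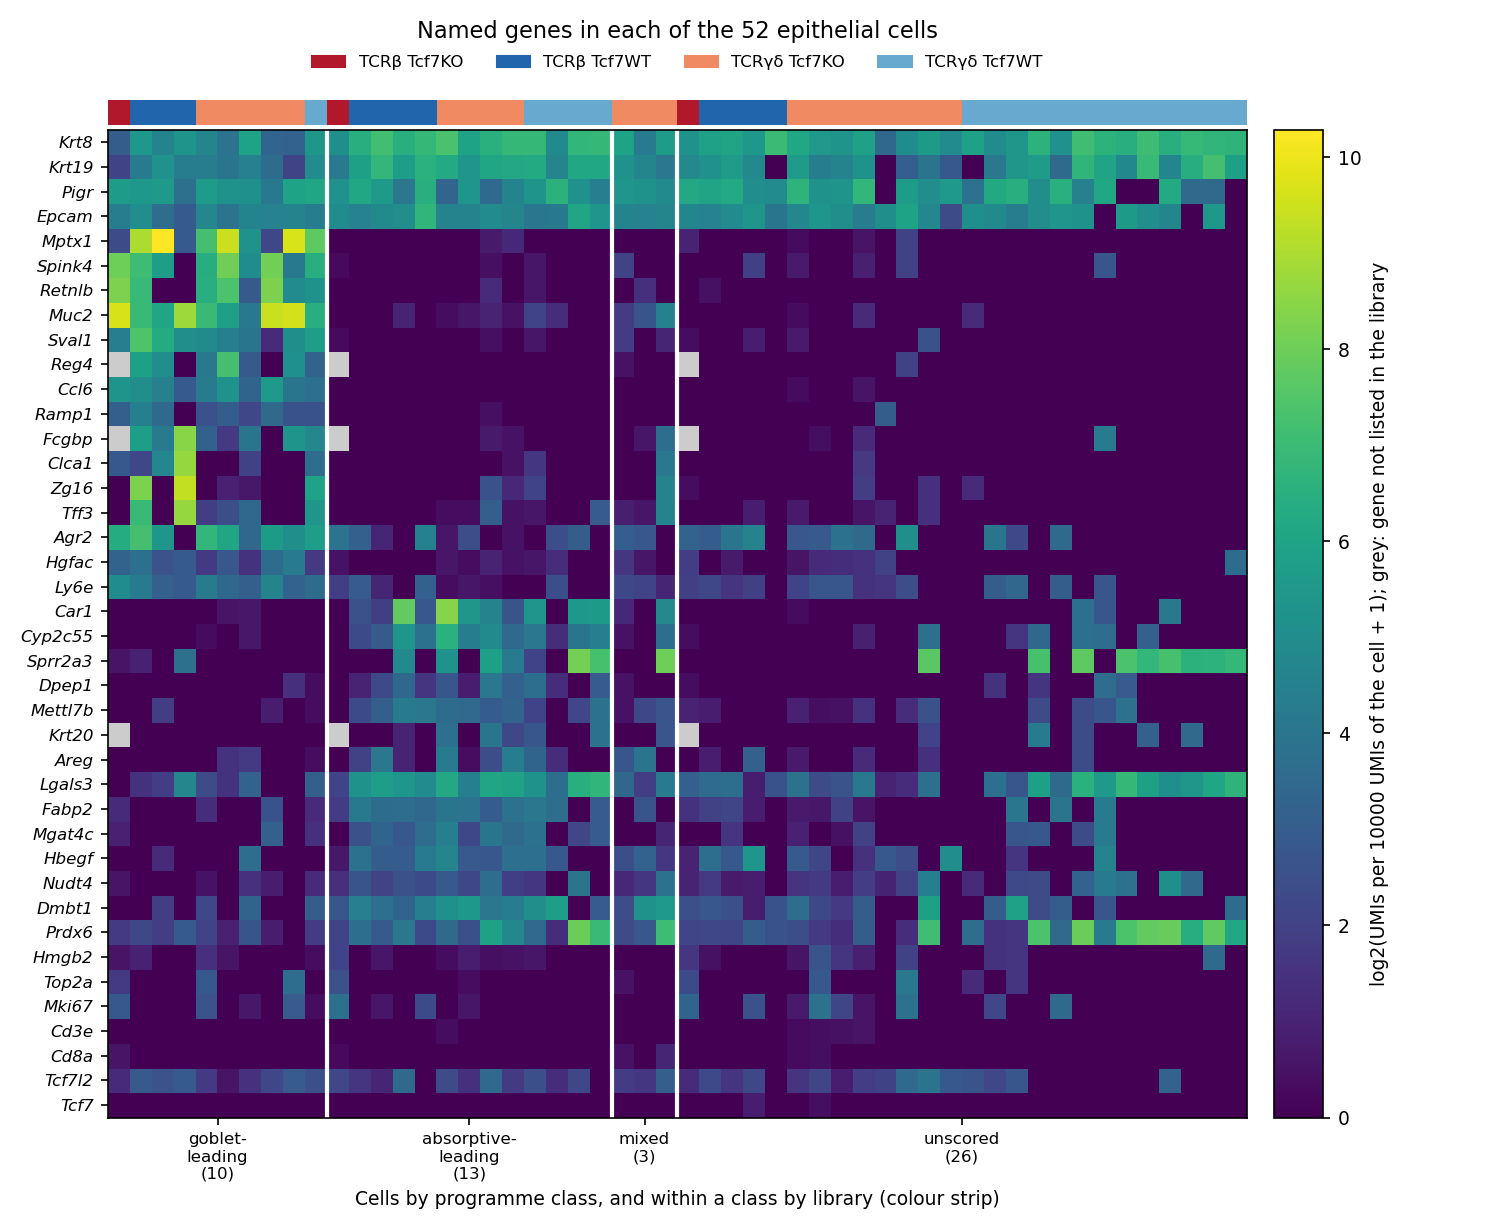
Level of 40 genes (rows) in each of the 52 epithelial cells (columns), as log2 of UMIs per 10000 UMIs of the cell + 1, with cells ordered by class, the strip giving the library and grey where a library does not list the gene. Of the rows from Mptx1 to Ly6e, several, such as Mptx1, Muc2, Ccl6 and Ly6e, have a UMI in all 10 goblet-leading cells, while Zg16 is bright in a few. The rows from Car1 to Prdx6 are brighter in absorptive-leading cells, and Sprr2a3 with Prdx6 also in unscored cells, most of them of TCRγδ Tcf7WT.

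At the other end, 14 of 25 other absorptive genes were measured, and 8 were at least 4-fold lower in goblet-leading cells, against 4.14% of all genes. None was 4-fold higher, and the list's median log2 ratio was -2.24. Here 8 of the 14 had under 50 UMIs in goblet-leading cells, and the same limit holds. Krt20, a keratin of surface cells, had 0 UMIs against 116, a ratio of at most -4.86, and the chloride exchanger gene Slc26a3 had 0 against 72 (at most -4.17). Both are not listed for TCRβ Tcf7KO. Mep1a, a brush border protease, stood at -4.21 (-6.52 to -2.62), Aqp4, a water channel, at -2.35, and Lypd8, which keeps flagellated bacteria off the surface, at -1.53 (-1.68 to -1.39). Lypd8 differed in degree only, since it was found in 10 of 10 goblet-leading and 13 of 13 absorptive-leading cells.

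Of the 15 genes named for the lowest ratios, Car1 (-9.35) and Cyp2c55 (-7.80) led, and Fabp2 (-3.18) was among them. Without TCRγδ Tcf7KO Car1 stood at -6.04, Cyp2c55 at -4.35 and Sprr2a3 at -4.28, while Hbegf stood at -5.66. The others included Sprr2a3, a small proline-rich protein of the cell envelope, at -6.40 (-8.28 to -5.03), the membrane dipeptidase gene Dpep1 at -5.56, and the epidermal growth factor family ligands Areg at -3.79 and Hbegf at -3.06. Lgals3, a galectin, stood at -3.35 (-3.71 to -3.002) and was found in 7 of 10 goblet-leading and 13 of 13 absorptive-leading cells. Dmbt1, a mucosal scavenger receptor, stood at -2.79 and the peroxidase gene Prdx6 at -2.77.

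Within libraries the other goblet genes stood above all genes in each, and the other absorptive genes stood well below all genes except in TCRβ Tcf7KO. The median log2 ratio of other goblet genes was 2.52, 6.81, 5.41 and 4.93 in TCRβ Tcf7KO, TCRβ Tcf7WT, TCRγδ Tcf7KO and TCRγδ Tcf7WT, over 4, 7, 8 and 6 measured genes. That of other absorptive genes was -0.53, -2.83, -2.38 and -1.56, over 3, 6, 13 and 6. All genes had medians of -0.50, -0.46, -0.22 and -0.02 in these libraries, so in TCRβ Tcf7KO, with 1 cell a class, the absorptive list did not stand apart from them. TCRγδ Tcf7WT had 1 goblet-leading cell. Listed genes could again pass the UMI minimum through the class where they were high. These medians therefore support nothing by themselves.

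Other lists were read in the same ratio, where 764 of all 1787 genes were above 0 and 1023 below. Genes of the secretory endoplasmic reticulum leaned to goblet-leading cells, with all 8 measured genes above 0, none 4-fold apart, and a median log2 ratio of 0.90. Xbp1, the transcription factor of the unfolded protein response, stood at 1.40 (0.86 to 1.97) and the chaperone gene Hspa5 at 0.85 (0.58 to 1.12). Without the TCRγδ Tcf7KO library that median was 0.15. Immediate-early and stress genes leaned the other way, with all 11 measured genes below 0, none 4-fold apart, and a median of -1.06, from Junb at -0.50 to Nfkbia at -1.93. Of 8 measured genes for xenobiotic and redox metabolism, only Cyp2c65, a relative of Cyp2c55, was past 4-fold, at most -3.78, and the list's median was -0.05.

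Lineage transcription factors mostly stayed under 4-fold. Of 11 on the list, 6 were measured, and the only one past 4-fold was Cdx2, an intestinal homeobox factor, at 60.4 CPM in goblet-leading cells and 309 CPM in absorptive-leading cells (log2 ratio -2.36, -3.41 to -1.44). Hnf4a, a nuclear receptor of absorptive cells, stood at -1.38 (-2.03 to -0.78), the vitamin D receptor gene Vdr at -1.37 and Klf4 at -0.95. Cdx1, the closest relative of Cdx2, stood at 0.21 (-0.22 to 0.63), and Hes1, the Notch target that holds back the secretory fate, at -0.25 (-0.72 to 0.22). Atoh1, the factor that starts the secretory fate, is listed in 1 library only, TCRγδ Tcf7KO, where it had 32 UMIs in 4 of 20 cells. Spdef, a goblet cell factor, had 43 UMIs in 11 of 49 cells of the 3 libraries that list it. Both had too few UMIs in the classes for a ratio.

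**Figure D4:**
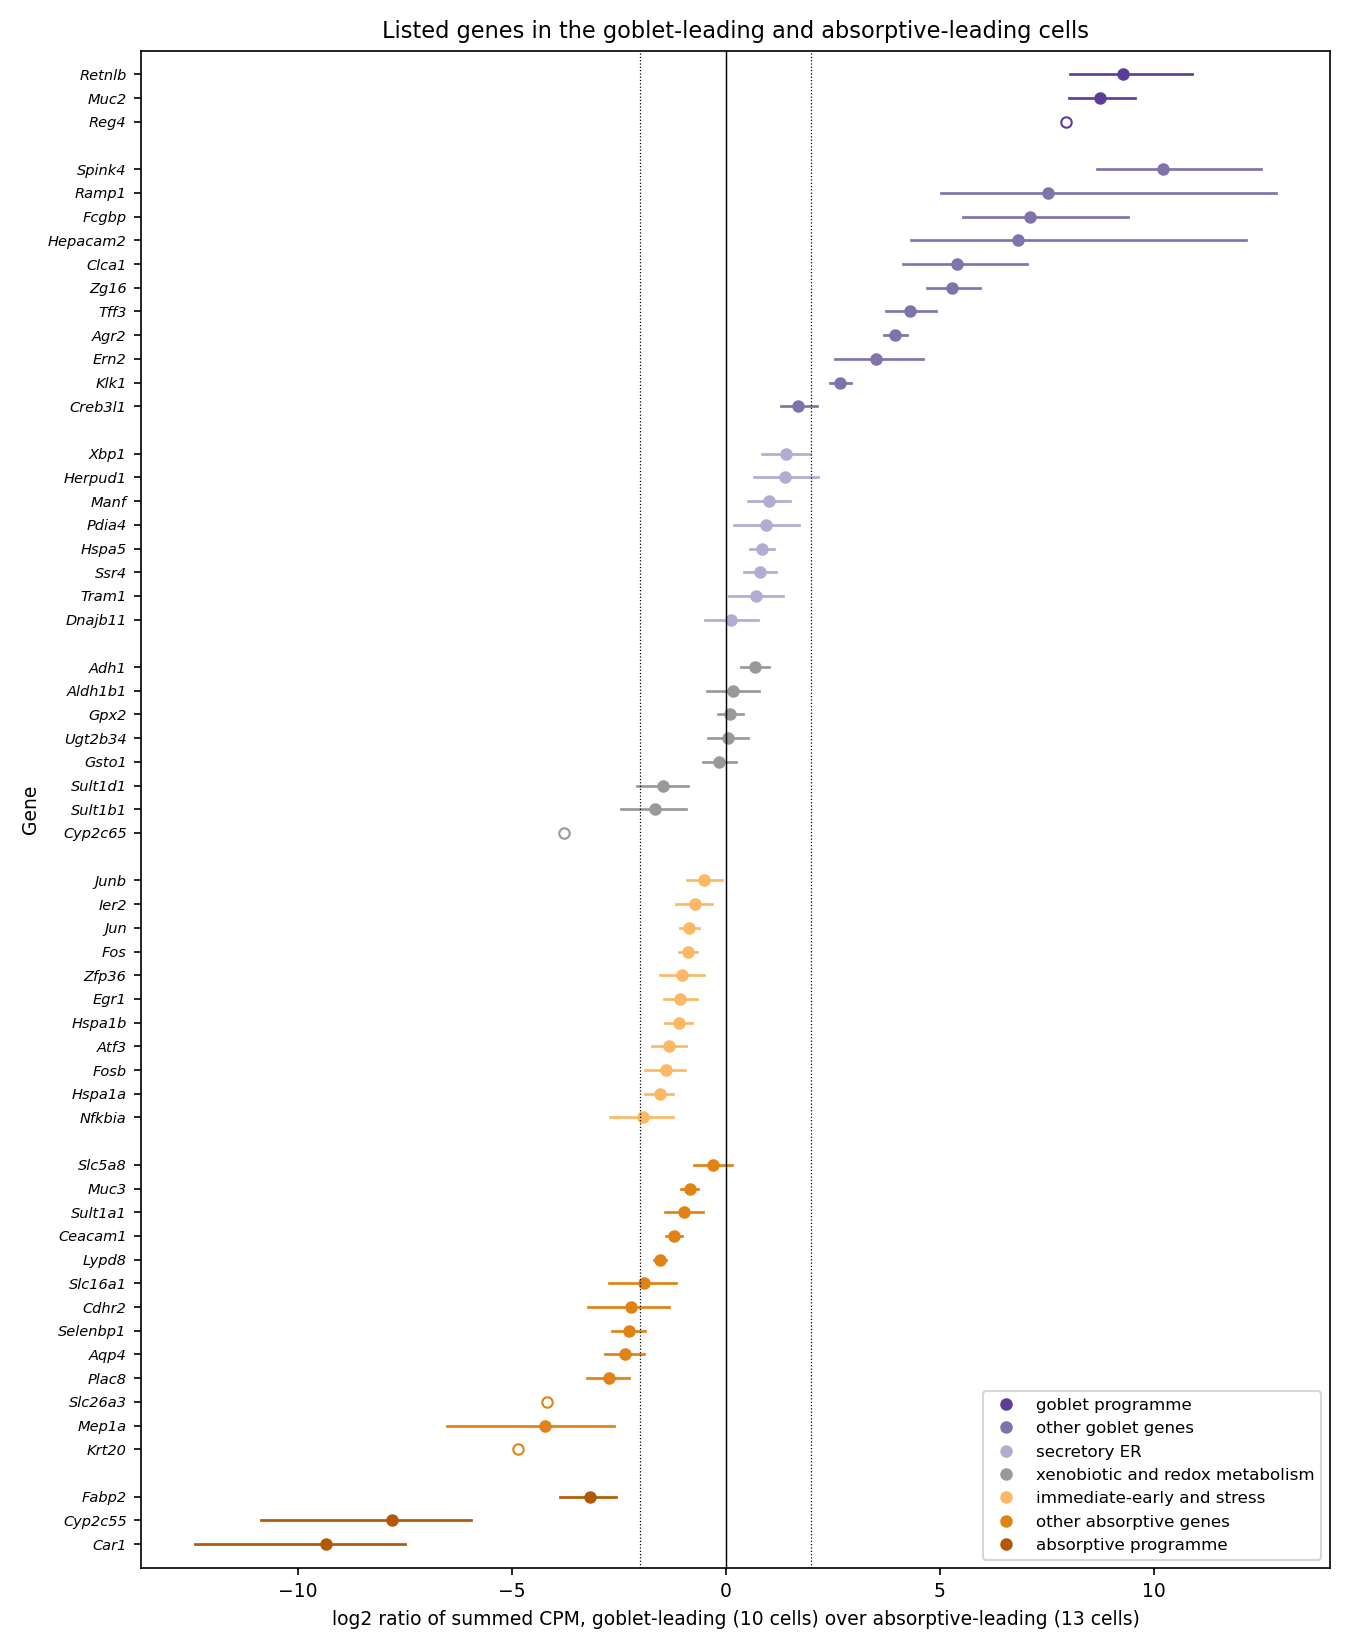
Log2 ratio of summed CPM in goblet-leading over absorptive-leading cells for measured genes of 7 lists, with 95% intervals for counting error. Open circles are bounds set with 3 UMIs on the side with none, and dotted lines mark 4-fold. The programme genes lie at the ends, other goblet genes between 1.70 and 10.22, and other absorptive genes between -4.86 and -0.30.

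Cells rich in Sprr2a3 were a group that the programme classes did not mark, and they were noticed after the values were seen. With Sprr2a3 at 75 or more per 10000 UMIs there were 12 such cells, 2 of the 20 in TCRγδ Tcf7KO, 10 of the 18 in TCRγδ Tcf7WT and none of the 14 in the TCRβ libraries. The lowest of them had 95.3 and the highest of the other 40 cells had 54.6. Of the 12 cells 9 were unscored, 2 absorptive-leading and 1 mixed, the cell with 20 goblet and 36 absorptive UMIs. They were shallow, with a median of 1470.5 UMIs (878 to 9056) against 17443.5 (1542 to 50105) in the other epithelial cells. The part of depth in the values below was not tested.

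In these 12 cells Prdx6 had a median of 163 per 10000 UMIs (68.3 to 250), against 3.79 (0 to 57.6) in the other 40. The genes given here were picked after their values were seen, with no share over all genes beside them. Lypd8 had a median of 338 (106 to 645) against 31.6 (0 to 187). Saa1, an acute-phase protein that epithelium makes in contact with microbes, had 314 of its 365 UMIs in 9 of the 12 cells, against 51 UMIs in 4 of the 40. Car4, a membrane carbonic anhydrase of the colon surface, had 90 UMIs in 6 of them against 37 in 4, and Sprr2b 84 in 8 against 85 in 6. Krt8 was high in them, at a median of 106 against 43.7, while Pigr was lower, at 20.8 against 44.3. Both are genes of the selection rule, and a shallow cell could meet it only with a higher share of the 4 genes. The values of Krt8 and Pigr therefore support nothing. Agr2 had 2 UMIs in 1 of the 12 cells and 1731 in 31 of the 40. Muc2 was found in 1 of the 12, the mixed cell.

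Cell cycle transcripts marked another set of cells. A list of 13 cell cycle genes gave 10 or more UMIs in 12 of the 52 cells. All 3 cells of TCRβ Tcf7KO were among them, with 158, 75 and 62 UMIs, and TCRγδ Tcf7KO reached 173. The highest cells had 21 UMIs in TCRβ Tcf7WT and 6 in TCRγδ Tcf7WT. Per 10000 UMIs the medians were 29.4, 1.80, 2.27 and 0 in TCRβ Tcf7KO, TCRβ Tcf7WT, TCRγδ Tcf7KO and TCRγδ Tcf7WT. With every cell thinned to 2000 UMIs, which left out 2 cells of TCRβ Tcf7WT and 8 of TCRγδ Tcf7WT, the medians were 7, 1, 0 and 1 UMIs, with highest cells at 10, 2, 11 and 3.

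Cells with 10 or more such UMIs were found in every class. The goblet-leading cell of TCRβ Tcf7KO had 62 cell cycle UMIs beside 1703 Muc2 UMIs, and a goblet-leading cell of TCRγδ Tcf7KO had 166 beside 560. The absorptive-leading cell of TCRβ Tcf7KO had 158. The cell with 173 was unscored, with 2 programme UMIs in 34848. Mki67, the proliferation antigen, had 227 UMIs in 18 cells, Top2a, a topoisomerase of dividing cells, 115 in 11, and Ube2c, which acts at mitotic exit, 113 in 13. Between the classes Mki67 stood at -0.14 (-0.73 to 0.43) and Ube2c at 2.16 (1.23 to 3.19), but 1 goblet-leading cell held 95% of that class's Ube2c UMIs and 1 absorptive-leading cell 92.8% of that class's Mki67 UMIs.

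**Figure D5:**
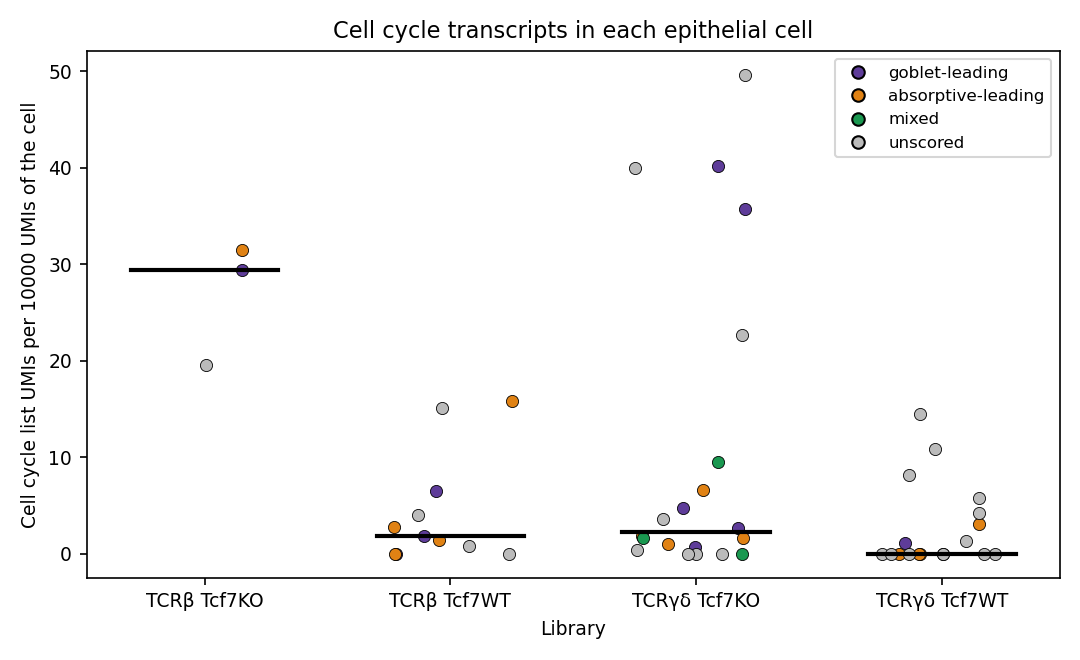
UMIs of 13 cell cycle genes per 10000 UMIs of the cell in each epithelial cell, by library, with colour for the programme class and a bar at the median. All 3 cells of TCRβ Tcf7KO lie at 19.6 or above, and goblet-leading cells are found both near 0 and at 40.2.

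Of 12 genes of the crypt base and of Wnt targets, 9 are listed in a library, and Lgr5, Ascl2 and Tnfrsf19 get no value here. Sox9, a factor of crypt progenitors, had 248 UMIs in 38 cells and Slc12a2, an ion cotransporter of crypt cells, 194 in 27. Both were higher in goblet-leading than in absorptive-leading cells, Sox9 by a log2 ratio of 1.06 (0.54 to 1.57) and Slc12a2 by 1.45 (0.89 to 2.03), short of 4-fold. The Wnt target Axin2 had 16 UMIs in 11 cells. Tcf7, the gene named in the genotypes, had 1 UMI in TCRβ Tcf7WT and 1 in TCRγδ Tcf7KO, and none in the epithelial cells of TCRβ Tcf7KO or TCRγδ Tcf7WT. Its relative Tcf7l2, the main TCF factor of intestinal epithelium, had 262 UMIs in 40 of 52 cells, at 238, 361, 340 and 373 CPM in TCRβ Tcf7KO, TCRβ Tcf7WT, TCRγδ Tcf7KO and TCRγδ Tcf7WT. Tcf7l1 had 130 UMIs in 25 cells, and Lef1 1.

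Genes through which epithelium speaks to lymphocytes had few UMIs each. Of 20 genes on that list 13 are listed in a library, and 12 of these had a UMI in an epithelial cell. Il18, an inflammasome cytokine, had 89 UMIs in 27 of 49 cells of the 3 libraries that list it, Ccl28, a chemokine that draws plasma cells to mucosa, 61 in 27 of 52, and Cx3cl1, a membrane-bound chemokine, 35 in 22. Btnl1, a butyrophilin-like protein that shapes intestinal γδ T cells in mice, had 27 UMIs in 12 of 49, and Il15, a survival factor of intraepithelial lymphocytes, 11 in 7 of 31. Il18 alone had enough UMIs for a ratio and stood at -1.72 (-2.88 to -0.71) in goblet-leading over absorptive-leading cells. MHC class II genes gave 1 UMI in all 52 cells, of Cd74, while the other cells of the libraries gave 16.4 to 246 CPM.

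A few cells carried transcripts of rarer epithelial types, and too few markers of those types are listed to name them. A TCRγδ Tcf7KO cell of 9843 UMIs had 141 UMIs of Pyy, the hormone peptide YY, which had none in the other epithelial cells of that library, the only one that lists it. It also had 24 of Rbp4, 16 of Hhex, 11 of Cplx2 and 8 of Pax6, which had 1, 0, 4 and 1 UMIs in all other epithelial cells of the libraries that list them, and no Krt19 or Pigr. A TCRβ Tcf7WT cell of 1975 UMIs had all 8 UMIs of Avil, an actin-binding protein of tuft cells, with 6 of Ptgs1, 3 of Ltc4s and 9 of Fyb. A TCRγδ Tcf7WT cell of 7352 UMIs had 7 UMIs of Ltc4s, the leukotriene C4 synthase, with 25 of Fyb, 20 of Lrmp, 7 of Ptgs1 and 6 of Hpgds. Both had no Krt19 UMI and many of Krt18, 32 and 41. These 3 cells were picked for the values given, so the values are a description.

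Over the 52 cells the goblet and absorptive shares had a Spearman correlation of -0.12, and the other goblet and other absorptive lists one of -0.42. Goblet and other goblet genes had 0.53, and absorptive and other absorptive genes 0.50. The goblet share had -0.48 with the summed share of Krt8, Krt19, Pigr and Epcam, and the absorptive share 0.54. Those genes chose the cells, and a shallow cell could meet the rule only with a higher share of them. The correlations with that summed share therefore support nothing. Cells of 1 library share its depth and its free RNA, and shares of a cell add up to a fixed total. All the correlations here are thus descriptions. With the threshold at 5 UMIs in place of 10, which took in T cells, the first 2 were 0.37 and 0.70.

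The genotype comparison rests on few cells. Goblet programme UMIs were 21398 CPM of the epithelial cells in TCRβ Tcf7KO (20540 to 22283) and 3662 CPM in TCRβ Tcf7WT (3340 to 4005), and 8681 CPM in TCRγδ Tcf7KO (8409 to 8959) and 4738 CPM in TCRγδ Tcf7WT (4325 to 5180). Absorptive programme UMIs were 219 CPM in TCRβ Tcf7KO (141 to 326) and 3078 CPM in TCRβ Tcf7WT (2784 to 3395), and 5305 CPM in TCRγδ Tcf7KO (5093 to 5523) and 2080 CPM in TCRγδ Tcf7WT (1809 to 2379). These intervals treat UMIs as independent and say nothing of the spread over cells. The whole goblet amount of TCRβ Tcf7KO came from 1 cell and 98.1% of that of TCRγδ Tcf7WT from 1 cell, so neither difference stands for more than those cells. Of the absorptive amounts, 1 cell held 54.2%, 70.3%, 73.3% and 65.1% in TCRβ Tcf7KO, TCRβ Tcf7WT, TCRγδ Tcf7KO and TCRγδ Tcf7WT. Those differences too rest largely on single cells. Without the deepest cell of each library the log2 ratio of goblet CPM in the TCRγδ sort was 5.70, against 0.87 with all cells.

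In the TCRγδ sort, 972 genes had at least 100 UMIs in the epithelial cells. By mean share per cell, 29 of them (2.98%) were at least 4-fold higher in Tcf7KO and 7 (0.72%) at least 4-fold lower. The minimum was summed over 444525 UMIs of Tcf7KO and 101943 of Tcf7WT cells, so genes could pass it more easily through Tcf7KO. Utp14b had 98 UMIs against 3, Prpf4b 104 against 8 and Tent5a 99 against 11. The counts of genes and the choice of the highest ones thus support nothing by themselves. Among the highest were Utp14b (log2 ratio of mean shares 4.17), Muc2 (4.01), Prpf4b (3.08), Tent5a (2.89) and Mptx1 (2.87). By summed CPM, which weighs deep cells more, Utp14b stood at 2.91, Muc2 at 0.64, Prpf4b at 1.58 and Tent5a at 1.0454, so that of these only Utp14b was past 4-fold. Muc2 averaged 84.0 ± 222 per 10000 UMIs over 20 Tcf7KO cells and 5.20 ± 20.6 over 18 Tcf7WT cells (SD over cells). Mptx1 averaged 87.3 ± 238 and 11.9 ± 50.6, and by summed CPM its log2 ratio was -0.23 (-0.35 to -0.12), so its direction turned with the weight given to each cell. Prpf4b, a kinase of the splicing machinery, was found in 20 of 20 Tcf7KO and 4 of 18 Tcf7WT cells. The median depth was 22219 UMIs in the Tcf7KO cells and 2558.5 in the Tcf7WT cells, and the part of depth in these shares was not tested.

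The 6 named as lowest in Tcf7KO were Plac8 (-2.33), Sult1b1 (-2.32), Prdx6 (-2.31), Smpdl3a (-2.26), Selenbp1 (-2.07) and Mgst3 (-2.004). By summed CPM none was 4-fold lower, with -1.19, -1.17, -1.48, -1.01, -0.92 and -0.98 in that order. Plac8 averaged 6.996 ± 7.92 per 10000 UMIs in Tcf7KO cells and 35.3 ± 31.4 in Tcf7WT cells, Prdx6 20.5 ± 42.1 and 102 ± 100.4, and Selenbp1, a selenium-binding methanethiol oxidase, 8.01 ± 10.4 and 33.6 ± 28.6. Sprr2a3-rich cells moved with these genes: there were 2 in Tcf7KO and 10 in Tcf7WT. Without those cells the log2 ratios of mean shares were -0.81 for Plac8, -0.67 for Sult1b1, 0.04 for Prdx6, -0.54 for Smpdl3a, 0.08 for Selenbp1 and -0.83 for Mgst3, and none was 4-fold apart. Of the 5 genes named as highest in Tcf7KO, Utp14b (3.02) and Muc2 (2.98) were still past 4-fold without them. Of 7 measured other goblet genes 1 was 4-fold higher in Tcf7KO and none lower, and of 13 measured other absorptive genes none was higher and 2 were lower, beside 2.98% higher and 0.72% lower over all 972 genes.

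Immediate-early and stress transcripts differed between libraries as well. Their median was 33.2, 119, 107 and 22.3 per 10000 UMIs in TCRβ Tcf7KO, TCRβ Tcf7WT, TCRγδ Tcf7KO and TCRγδ Tcf7WT, with ranges over cells of 28.5 to 36.9, 9.02 to 227, 16.0 to 236 and 0 to 192. All 3 cells of TCRβ Tcf7KO lay below the median of TCRβ Tcf7WT. The 10 Sprr2a3-rich cells of TCRγδ Tcf7WT all lay below the median of TCRγδ Tcf7KO. With cells thinned to 2000 UMIs the medians were 6, 24, 20 and 5.5 UMIs, in the same order of libraries.

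In summed UMIs, the balance of the programmes outside the epithelial cells differed from that within them. Inside, 1 cell held 100%, 70.02%, 36.3% and 98.1% of the goblet UMIs in TCRβ Tcf7KO, TCRβ Tcf7WT, TCRγδ Tcf7KO and TCRγδ Tcf7WT. The shares inside thus rest largely on single cells. That cell had all 2341 goblet UMIs in TCRβ Tcf7KO and 334 of 477 in TCRβ Tcf7WT. In TCRγδ Tcf7KO it had 1399 of 3859, and in TCRγδ Tcf7WT 474 of 483. It had 3 of 24, 0 of 401, 7 of 2358 and 5 of 212 absorptive UMIs in that order. Without it, the goblet share inside lay below that of the other cells in TCRβ Tcf7KO, TCRβ Tcf7WT and TCRγδ Tcf7WT. In TCRγδ Tcf7KO that share stayed above. Of goblet and absorptive programme UMIs together, 98.99%, 54.3%, 62.1% and 69.5% were goblet in the epithelial cells of TCRβ Tcf7KO, TCRβ Tcf7WT, TCRγδ Tcf7KO and TCRγδ Tcf7WT, against 44.2% (32.8 to 55.9), 37.3% (28.2 to 47.0), 20.97% (14.2 to 29.2) and 23.4% (16.8 to 31.2) in the other cells. Those other cells had 77, 110, 124 and 145 programme UMIs in all. Car1 UMIs were found in 0.190%, 0.514%, 5.03% and 3.64% of them and Muc2 UMIs in 0.346%, 0.237%, 0.537% and 0.749%, so Car1 differed between the sorts more than Muc2 did.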

How the data were processed

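The samples were 4 droplet-based 3′ single-cell libraries of sorted colon intraepithelial lymphocytes. The authors deposited a matrix of UMI counts per gene and cell for each, per the labels' protocols. The processing notes name Seurat 3.0.0 and GRCm38/mm10, with no role, and the aligner is not given in the sources used here. Between 13331 and 14661 genes were listed per library (15301 in any, 12698 in all), and a gene not listed in a library got no value there. The deposited counts were used as they stood, with no further cell filter. Cell totals were summed over listed genes.

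Epithelial cells were those with 10 or more UMIs of Krt8, Krt19, Pigr and Epcam. The cells and gene lists were chosen with earlier results of these data known. Levels were summed as UMIs over cells and divided by total UMIs (CPM), or given per 10000 UMIs of a cell. Programme classes needed 10 programme UMIs. Ratios between classes used genes with at least 50 UMIs, a call meant 4-fold, and a side with no UMI was set at 3 UMIs. Intervals are 95% exact conditional, Poisson or Clopper-Pearson intervals, and PCR and cell-to-cell spread lie outside them. With 1 library a group there was no test and no p-value. Named genes were the selection and programme genes, Tcf7 and Tcf7l2, the 20 with the highest mean share, the 15 highest and 15 lowest class ratios and the 6 highest and 6 lowest genotype ratios with at least 100 UMIs and a UMI in at least 50% of the cells of the higher side, and up to 6 measured members of each list. Other genes were named after their values were seen, and a few that the rule names are not reported here. Cells were thinned to 2000 UMIs for depth checks. Scrublet called 1, 1, 6 and 8 doublets in TCRβ Tcf7KO, TCRβ Tcf7WT, TCRγδ Tcf7KO and TCRγδ Tcf7WT, none of them epithelial. That is under 0.5% of each library, too few for its calls to be relied on, and no cell was removed as a doublet. The ratio step was tested on simulated data. Python 3.11.15, numpy 2.4.6, scipy 1.17.1, pandas 2.3.3, scanpy 1.11.5 and matplotlib 3.10.9 were used, with edgeR 4.0.16 and DESeq2 1.42.0 in R 4.3.3 for other scaling factors. Alternatives were other thresholds, class bounds, weights, scalings and UMI minimums, and leaving out libraries or cells.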

Additional observations from a re-analysis of the deposited data

Results flagged for a closer look

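In 3 measures the genotypes differed in opposite directions in the TCRγδ and the TCRβ sort. Each rests on 1 library a group, and the difference between the sorts was not tested. The log2 ratio of the share of epithelial cells, Tcf7KO over Tcf7WT, was 0.47 in the TCRγδ sort and -1.48 in the TCRβ sort, a difference of 1.95, and both intervals include 0. That of the absorptive programme level was 1.35 in the TCRγδ sort and -3.81 in the TCRβ sort, a difference of 5.16, where TCRβ Tcf7KO had 3 epithelial cells. In TCRγδ Tcf7KO 1 cell held 73.3% of the absorptive UMIs, so the direction in that sort rests largely on that cell. By the median over cells the directions were not opposite. The median absorptive share was 1.68 per 10000 UMIs in TCRγδ Tcf7KO and 11.98 in TCRγδ Tcf7WT. In TCRβ Tcf7KO and TCRβ Tcf7WT it was 2.09 and 3.12, so it was lower in Tcf7KO in both sorts. The log2 ratio of the median share of immediate-early and stress transcripts was 2.26 in the TCRγδ sort and -1.84 in the TCRβ sort, a difference of 4.10. The TCRβ value rests on 3 Tcf7KO cells. In the TCRγδ sort, 10 of 18 Tcf7WT cells were Sprr2a3-rich, and all 10 lay below the Tcf7KO median of 107 per 10000. The Tcf7WT cells above it were all among the others. With cells thinned to 2000 UMIs, which left out 8 Tcf7WT cells, the TCRγδ medians were 20 UMIs in Tcf7KO and 5.5 in Tcf7WT. The ratio without Sprr2a3-rich cells was not tested.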

How the results depend on the processing

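Over all alternatives, 290 values of the main results stayed within their error, 44 moved and 3 changed sign, and of values of single named genes 715, 78 and 4 did so. No paired analysis was possible because each group was 1 library and the labels number no replicates. The cause of each change below was not tested.

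A threshold of 5 UMIs took in T cells. It gave 25, 23 and 38 cells in TCRβ Tcf7KO, TCRβ Tcf7WT and TCRγδ Tcf7KO, with a median of 196 T cell UMIs per 10000. Goblet-leading cells were then 8.77% and absorptive-leading cells 11.4%, the 2 Spearman correlations were 0.37 and 0.70, and the TCRβ log2 ratio of the epithelial share turned to 0.51. The goblet log2 ratio, Tcf7KO over Tcf7WT, was then 2.11 in TCRβ and 1.31 in TCRγδ, the absorptive one 1.79 in TCRγδ, and that of Mptx1 in TCRγδ 0.20. With a threshold of 20 UMIs the goblet ratio in TCRβ was 2.75. A rule on the share of UMIs put the correlation of the other lists at -0.016. A minimum of 5 programme UMIs made 44.2% of cells absorptive-leading.

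Leaving out 1 library at a time put mixed cells at 0 to 8.82%, goblet-leading cells at 15.6 to 26.5%, genes 4-fold higher in goblet-leading cells at 20 to 43 and lower at 34 to 81. The lowest of both counts came without TCRγδ Tcf7KO. The list medians ranged from 3.96 to 5.94 for other goblet genes, -2.55 to -1.32 for other absorptive genes, 0.15 to 1.27 for secretory genes and -2.14 to -0.74 for stress genes. With each cell weighing the same, those of other goblet, other absorptive and stress genes were 7.13, -2.72 and -0.64, and the genotype ratios were 2.29 (goblet, TCRβ), 4.004 (goblet, TCRγδ), 0.83 (absorptive, TCRγδ) and 2.87 (Mptx1, TCRγδ). Genes 4-fold higher and lower were 981 and 363 with a minimum of 1 UMI and 14 and 22 with 200 UMIs.

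Without the deepest cell of each library the goblet ratio was 3.12 in TCRβ and 5.70 in TCRγδ and the absorptive one 0.92 in TCRγδ. Alternatives chosen after seeing the data were leaving out cells under 2000 UMIs, which gave goblet ratios of 2.73 in TCRβ and 0.73 in TCRγδ, and leaving out Sprr2a3-rich cells. Without Sprr2a3-rich cells the log2 ratios in TCRγδ were 1.49 for the share, 0.63 for the goblet level and, by summed CPM, 0.71 for Prdx6 and 0.11 for Smpdl3a. Counting only other cells with at most 1 UMI of the 4 genes, Krt8, Krt19 and Pigr stood at 4.22, 4.37, 7.79 and 27.7 CPM and Epcam at 99.5, 96.1, 94.5 and 71.3 CPM in TCRβ Tcf7KO, TCRβ Tcf7WT, TCRγδ Tcf7KO and TCRγδ Tcf7WT.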
